A study of Mus musculus with 7 samples.

Results

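Striatal microglia were the 82 nuclei that the deposited annotation calls microglia, of 4524 nuclei in 12 annotated types. Microglia are the resident macrophages of brain tissue. They depend on signalling through the receptor Csf1r and on TGF-beta, survey the tissue with fine processes, and tag and engulf synapses, debris and dying cells partly through complement. In disease models they lower genes of this surveying (homeostatic) state and switch on a reactive programme around the receptor Trem2 and the lipid carrier Apoe.

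The nuclei came from flash-frozen striatum of 7 male C57BL6/J mice, with 1 droplet library of transcript 3' ends per mouse, so the mouse is the replicate. HttQ175/+ mice (n = 4) carried 1 copy of HttQ175, in which a lengthened CAG repeat sits in the mouse huntingtin gene itself, as a model of Huntington's disease present in all cells, and WT mice (n = 3) carried none. HttQ175/+ replicate 1 was 15 months old, and the other 6 mice were aged 14 months. The series addressed changes of cell identity in the striatum under the mutation. Replicate numbers only name mice and pair none.

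HttQ175/+ replicates 1, 2, 3 and 4 held 17, 27, 6 and 19 microglial nuclei, and WT replicates 1, 2 and 3 held 1, 7 and 5. In all, 69 of 3210 nuclei were microglia in HttQ175/+ mice and 13 of 1314 in WT mice. They carried 154063 unique molecular identifiers (UMIs, each standing for 1 captured transcript) in HttQ175/+ mice and 32759 in WT mice. The deposited genotype matched the labels in all 4524 nuclei, and no microglial barcode occurred in more than 1 library. Levels below are CPM, the UMIs of a gene per 1000000 UMIs of the same nuclei, and intervals at 95% cover counting error only.

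All 10 defining markers were at their highest level in microglia among the 12 types. The receptor gene P2ry12, which senses nucleotides, stood at 225 CPM in microglia and at 17.7 CPM in astrocytes, the next type. Cx3cr1, the receptor for the neuronal ligand fractalkine, stood at 241 CPM in microglia and at 18.7 CPM in oligodendrocytes. C1qa, a chain of the complement starter C1q, stood at 434 CPM in microglia and at 38.2 CPM in oligodendrocytes. Because the annotation was made from these nuclei, these levels describe the class and test nothing.

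**Figure D1:**
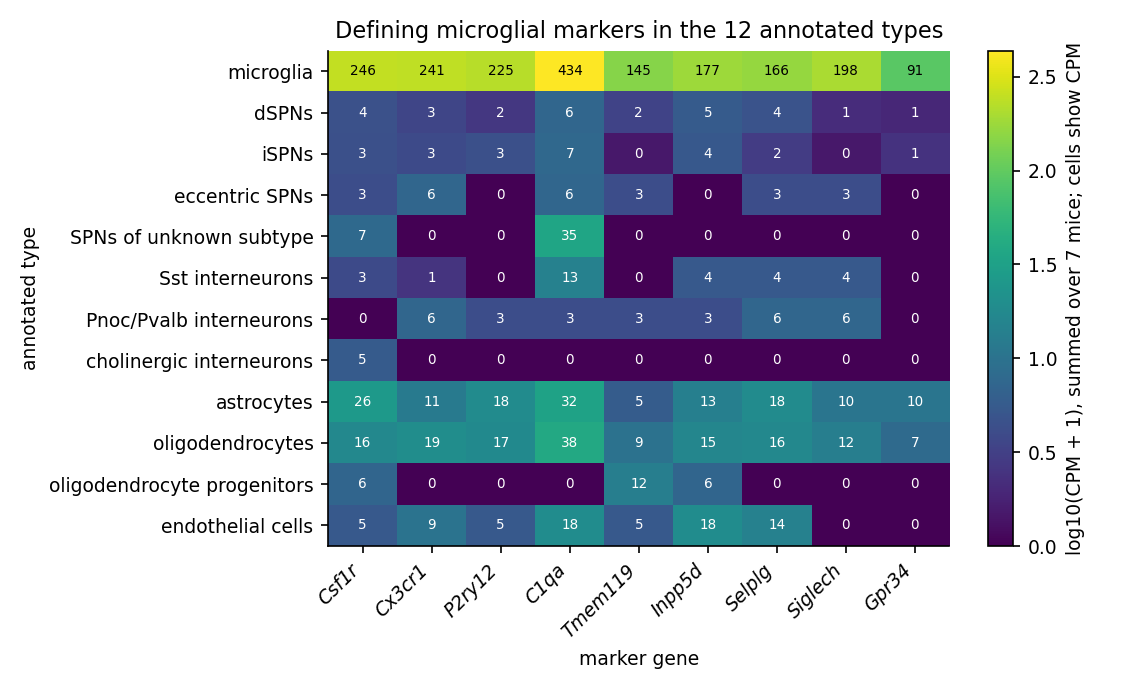
Levels of defining microglial markers (columns, CPM printed in each cell, colour on a log10 scale of CPM plus 1) in the 12 annotated types (rows), summed over the 7 mice. The microglial row is the highest in every column, with C1qa at 434 CPM. The next highest row is astrocytes or oligodendrocytes except for Tmem119 (oligodendrocyte progenitors) and Inpp5d (endothelial cells).

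Of the 20 genes that most separated microglia from the next highest type, 11 were not among the markers. In order they included P2ry12, Siglech, Cd33, Laptm5, C1qa, Csf1r, C1qc, Inpp5d, C1qb, Ptprc, Hpgds, P2ry6, Cx3cr1, Ctss, Selplg, Tmem119, Cyth4, Trem2 and Hmha1. They include surface receptors (Cd33, Trem2, P2ry6), the leukocyte phosphatase Ptprc (CD45), lysosomal genes (Laptm5, Ctss) and Hpgds, the prostaglandin D synthase of blood-derived cells. Hpgds stood at 364 CPM in microglia and at 43.4 CPM in astrocytes. The C1q chain genes lie beside each other on the minus strand of chromosome 4 of mm10, with C1qb at chr4:136880129-136886187, C1qc at chr4:136889804-136893065 and C1qa at chr4:136895917-136898803.

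Promoter sequence is shown for the adjacent C1q genes with an entry, for Inpp5d (a lipid phosphatase of immune cells) and Trem2, and for P2ry12, the leading gene. Each line gives the 250 bases before the gene's start from RefSeq (GRCm38.p6, 5′ to 3′ on the gene's strand). Capitals mark GAGGAA or its reverse complement, the purine box that the macrophage factor PU.1 is known to bind.
C1qb: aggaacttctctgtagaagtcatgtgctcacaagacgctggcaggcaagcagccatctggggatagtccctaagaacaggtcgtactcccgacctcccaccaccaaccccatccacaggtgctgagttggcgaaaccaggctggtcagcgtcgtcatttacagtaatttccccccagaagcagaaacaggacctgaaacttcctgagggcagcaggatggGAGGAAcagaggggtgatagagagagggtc
C1qc: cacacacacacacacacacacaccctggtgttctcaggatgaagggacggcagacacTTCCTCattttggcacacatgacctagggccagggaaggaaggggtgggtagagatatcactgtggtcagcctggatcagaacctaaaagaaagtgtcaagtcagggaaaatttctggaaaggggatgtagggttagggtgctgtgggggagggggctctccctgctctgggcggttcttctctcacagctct
Inpp5d: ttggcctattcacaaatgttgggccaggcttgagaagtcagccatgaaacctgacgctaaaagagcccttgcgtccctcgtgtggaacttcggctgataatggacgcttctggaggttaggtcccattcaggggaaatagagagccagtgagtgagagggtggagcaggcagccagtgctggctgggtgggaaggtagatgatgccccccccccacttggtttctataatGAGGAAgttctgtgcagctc
Trem2: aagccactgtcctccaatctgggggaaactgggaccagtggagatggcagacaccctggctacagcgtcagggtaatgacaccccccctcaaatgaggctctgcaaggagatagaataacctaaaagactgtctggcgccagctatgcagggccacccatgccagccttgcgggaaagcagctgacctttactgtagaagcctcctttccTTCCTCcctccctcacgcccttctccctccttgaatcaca
P2ry12: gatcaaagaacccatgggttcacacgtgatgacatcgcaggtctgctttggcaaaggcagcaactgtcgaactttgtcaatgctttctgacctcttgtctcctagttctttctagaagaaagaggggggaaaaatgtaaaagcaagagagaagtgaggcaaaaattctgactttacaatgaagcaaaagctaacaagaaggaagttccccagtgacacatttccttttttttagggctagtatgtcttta
The windows are chr4:136886201-136886450 (C1qb, minus strand), chr4:136892915-136893164 (C1qc, minus strand), chr1:87620062-87620311 (Inpp5d, plus strand), chr17:48346151-48346400 (Trem2, plus strand) and chr3:59262986-59263235 (P2ry12, minus strand). The box ends the C1qb and Inpp5d windows most closely, beginning 30 and 20 bases before the start, and P2ry12 holds none. Promoters were found for 13 of the 20 leading genes, 14 promoters in all. Of these 13 genes 9 held the box on either strand in at least 1 promoter. Of all 32851 promoters searched 23.3% held it, a share per promoter and not per gene. A match is a description of letters and says nothing of binding.

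The label did not hold equally for all 82 nuclei. In the annotated class 26 nuclei (31.7%, Wilson interval 22.6 to 42.4%) held no UMI of any of the 10 markers, 12 held 1 to 2 and 44 held 3 or more. Depth did not separate these sets, whose median UMIs per nucleus were 2170, 2007.5 and 2077. Scrublet, a doublet caller, marked 60 of all 4524 nuclei (1.33%) and none of the 82.

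Marker-free nuclei were mostly from HttQ175/+ mice. They made up 9 of 17, 12 of 27, 1 of 6 and 2 of 19 microglial nuclei in HttQ175/+ replicates 1 to 4, against 0 of 1, 1 of 7 and 1 of 5 in WT replicates 1 to 3. HttQ175/+ replicates 1 and 2 therefore stood apart, with 21 of the 26. Results are given below both for all 82 nuclei and for the 44 with at least 3 marker UMIs.

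**Figure D2:**
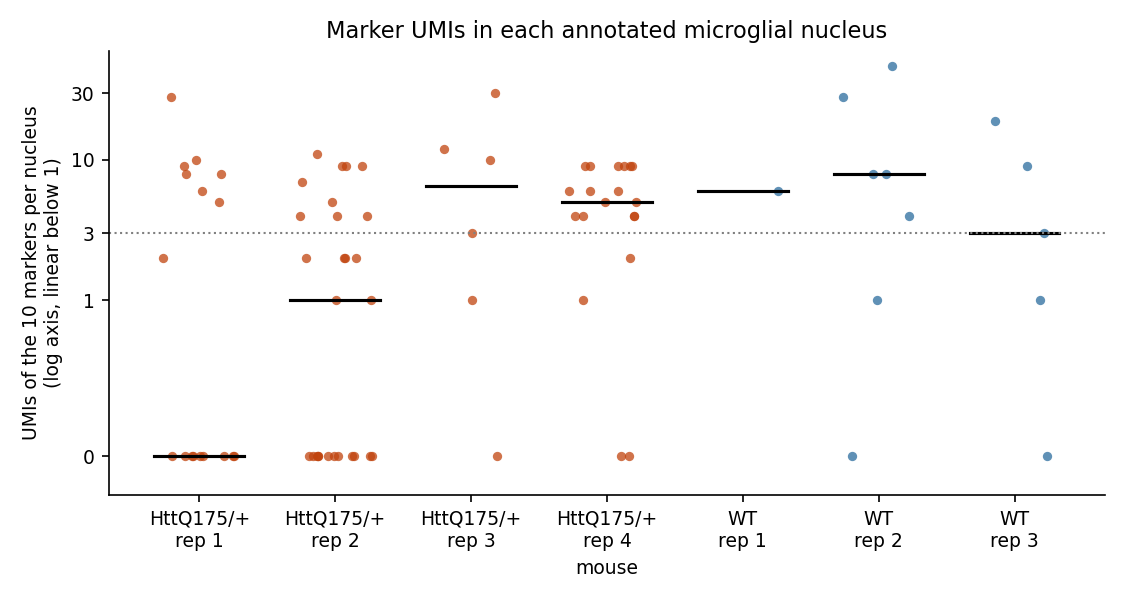
UMIs of the 10 markers in each annotated microglial nucleus (points; y axis logarithmic above 1 and linear below it) by mouse, with the median of each mouse as a bar and a dotted line at 3 UMIs. The median is 0 in HttQ175/+ replicate 1 and 1 in replicate 2, and between 3 and 8 in the other mice.

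Genes outside the markers separated the same nuclei. The 34 genes of the complement and phagocytic lists that are not markers summed to 162 CPM in the marker-free nuclei and to 4776 CPM in nuclei with at least 3 marker UMIs, beside 164 CPM in direct-pathway spiny projection neurons (dSPNs). Ctsd, the lysosomal protease cathepsin D, had 0 of 61615 UMIs in the marker-free nuclei, which allows up to 48.7 CPM, and 87 UMIs of 101971 in nuclei with at least 3. By the complement and phagocytic genes the marker-free nuclei lay close to dSPNs, and they are called marker-free nuclei here.

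Other types' RNA was present in the marker-free nuclei. The 6 spiny projection neuron (SPN) markers, among them the striatal phosphodiesterase Pde10a, summed to 5112 CPM there, to 4413 CPM in nuclei with at least 3 marker UMIs and to 6202 CPM in dSPNs. Markers of astrocytes, oligodendrocytes and endothelium summed to 617, 844 and 390 CPM in marker-free nuclei, against 84.9, 104 and 33.3 CPM in dSPNs. In nuclei with at least 3 marker UMIs the markers of astrocytes, oligodendrocytes and endothelium summed to 39.2, 520 and 29.4 CPM. For oligodendrocyte markers the counting intervals of these and of the marker-free nuclei overlapped (389 to 680 and 630 to 1107 CPM). Ttr, the thyroid hormone carrier made by choroid plexus, gave 99 UMIs in marker-free nuclei, of which 97 lay in 1 nucleus. Their part in the annotation was not tested.

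Marker UMIs also occurred outside the class. At least 1 was found in 56 of 82 microglial nuclei (68.3%), in 7.30% of the 1809 dSPNs and in 16.0% of the 468 oligodendrocytes, with median depths of 2070, 2175 and 2158.5 UMIs. Neurons should lack these markers, so the dSPN share is the level set beside the microglial one. The source of marker UMIs outside the class was not tested. At least 5 marker UMIs were held by 34 microglial nuclei and by 23 nuclei of other types, of which 13 were oligodendrocytes and 6 were astrocytes. By mouse these 23 numbered 11, 5, 3 and 1 in HttQ175/+ replicates 1 to 4 and 0, 2 and 1 in WT replicates 1 to 3.

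Other myeloid and blood cells were at or near 0 in the class. Of 7 markers of border macrophages, Mrc1, Cd163, Lyve1, Pf4, Cbr2 and Ms4a7 had no UMI, and F13a1 had 2, both in HttQ175/+ replicate 3. Of 9 markers of other blood immune cells 8 had no UMI. A count of 0 in all 186822 microglial UMIs allows a level of up to 16.1 CPM.

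The share of nuclei annotated as microglia was 2.07, 2.18, 1.34 and 2.71% in HttQ175/+ replicates 1 to 4, against 0.239, 2.07 and 0.896% in WT replicates 1 to 3. The genotypes overlapped, because WT replicate 2 lay above HttQ175/+ replicate 3. The mean was 2.07 ± 0.564% in HttQ175/+ mice (SD, n = 4) and 1.07 ± 0.928% in WT mice (SD, n = 3), a difference of 1.01 percentage points (exact two-sided permutation test over mice, p = 0.171, the smallest possible being 0.0571). Over nuclei that are not neurons the shares were 8.73 ± 2.35% in HttQ175/+ mice and 4.76 ± 3.85% in WT mice (exact permutation p = 0.114).

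With at least 3 marker UMIs required, the share was 0.852, 0.726, 0.893 and 2.14% in HttQ175/+ mice, against 0.239, 1.48 and 0.538% in WT mice. The means were 1.15 ± 0.662% in HttQ175/+ mice (SD, n = 4) and 0.752 ± 0.647% in WT mice (SD, n = 3), and the exact permutation p was 0.514. The difference was then 0.401 percentage points, less than the spread among mice of either genotype. A share of nuclei depends on how many nuclei of other types were recovered, so a larger number of microglia and fewer nuclei of other types cannot be told apart.

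**Figure D3:**
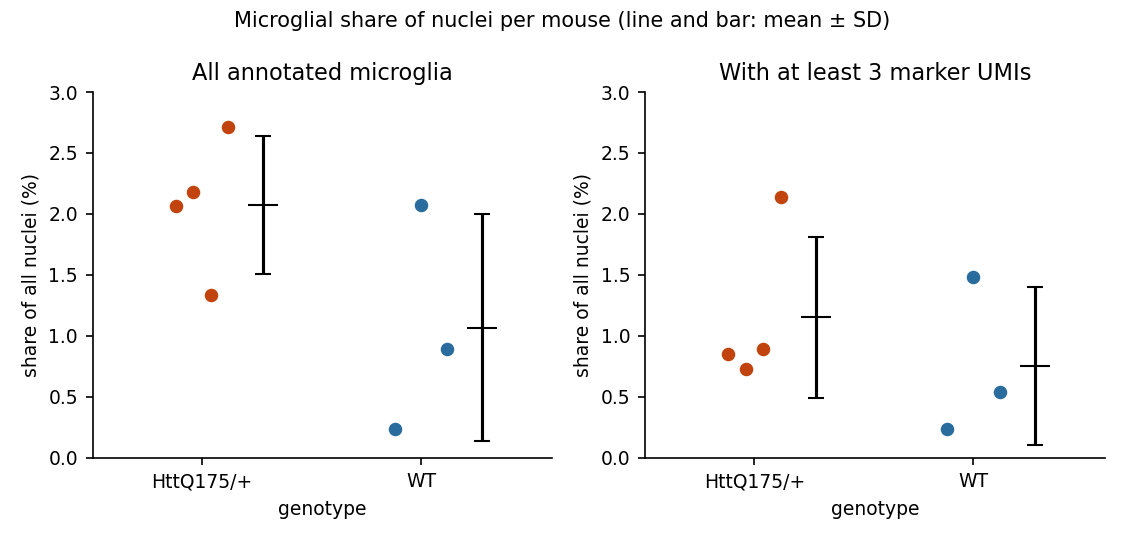
Share of all nuclei (%, y axis) in HttQ175/+ and WT mice (1 point per mouse; line and bar, mean ± SD), for all annotated microglia on the left and for microglia with at least 3 marker UMIs on the right. WT mice span 0.239 to 2.07% on the left, and HttQ175/+ replicate 4 stands alone at 2.14% on the right.

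Depth per microglial nucleus overlapped between the genotypes. The median was 2523, 2018, 1443 and 2050 UMIs in HttQ175/+ replicates 1 to 4, against 3021 and 1622 UMIs in WT replicates 2 and 3. WT replicate 1, with its single nucleus of 2776 UMIs, was left out of this comparison. HttQ175/+ mice averaged 2009 ± 442 UMIs (SD, n = 4) and WT mice 2322 ± 989 UMIs (SD, n = 2), a difference of -313 UMIs (exact permutation p = 0.533, the smallest possible being 0.133).

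Per gene, no microglial gene passed the test of HttQ175/+ against WT. limma-trend on the 4 HttQ175/+ mice and the 2 WT mice with at least 5 microglial nuclei called 0 of 3022 genes, or 0%, at an adjusted p under 0.05. The smallest adjusted p was 0.226, and 267 genes had an unadjusted p under 0.05, of which 253 were higher and 14 lower in HttQ175/+ mice. Without WT replicate 2, which leaves 1 WT mouse, 8 genes were called, all higher in HttQ175/+ mice. The median log2 difference of all 3022 genes was 0.40 with TMM scaling and 0.16 without it, so single differences are read against that shift.

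Genes nearest to the threshold are named as not passing. Those with the higher estimate in HttQ175/+ mice included Mark2, Map1b, Wnk1 and Pabpn1. Map1b, which encodes a microtubule protein of neurons, averaged 268 CPM in HttQ175/+ mice and had no UMI in either WT mouse of the comparison. Wnk1, a kinase of ion transport, averaged 594 CPM in HttQ175/+ mice and 53.4 CPM in WT mice (log2 difference 2.58 ± 0.61, SE, adjusted p = 0.226 with limma).

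Those with the lower estimate were Penk, Rpl36, Rtn4, Gpr34 and Siglech. Penk encodes the enkephalin precursor of indirect-pathway SPNs and averaged 108 CPM in microglia of HttQ175/+ mice and 735 CPM in those of WT mice (log2 difference -1.85 ± 0.60, SE, adjusted p = 0.450 with limma). Siglech and Gpr34, a lectin and a lipid receptor of microglia, differed by -1.52 ± 0.63 and -1.45 ± 0.60 on the log2 scale (SE, limma adjusted p = 0.523 and 0.520). Siglech had 5, 3, 2 and 10 UMIs in HttQ175/+ replicates 1 to 4, against 1, 13 and 3 UMIs in WT replicates 1 to 3. At such counts a few UMIs set the estimate.

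Homeostatic genes had lower pooled levels in HttQ175/+ microglia, but the mice of the genotypes overlapped. The 20 genes summed to 3921, 2263, 9867 and 4417 CPM in HttQ175/+ replicates 1 to 4, against 2882, 9713 and 6749 CPM in WT replicates 1 to 3. HttQ175/+ replicate 3 was the highest mouse and HttQ175/+ replicate 2 the lowest. Pooled, the sum was 3856 CPM in HttQ175/+ microglia and 8303 CPM in WT microglia, a ratio of 0.464 (counting interval 0.402 to 0.538). Over mice the mean was 5117 ± 3298 CPM in HttQ175/+ mice (SD, n = 4) and 6448 ± 3426 CPM in WT mice (SD, n = 3), a difference smaller than either spread. Over the 44 nuclei with at least 3 marker UMIs the pooled ratio was 0.572 (0.493 to 0.666). The mean over mice was there 9472 ± 7244 CPM in HttQ175/+ mice and 9038 ± 5771 CPM in WT mice, so it differed in direction from pooling. WT replicate 1 entered both WT means with 2882 CPM, from 8 UMIs in its single nucleus. In such nuclei WT replicates 2 and 3 held 14324 and 9909 CPM, above the HttQ175/+ mean, while HttQ175/+ mice spanned 5086 to 20250 CPM. Marker-free nuclei were 24 of 69 in HttQ175/+ mice and 2 of 13 in WT mice. By mouse their share was 52.9, 44.4, 16.7 and 10.5% in HttQ175/+ replicates 1 to 4. It was 0, 14.3 and 20% in WT replicates 1 to 3, the 0% being that of a single nucleus. The part of marker-free nuclei in the pooled ratio was not tested.

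A single nucleus weighed heavily on this ratio. The nucleus richest in marker UMIs in WT replicate 2 held 47 of them and 40.1% of all homeostatic UMIs in WT microglia, in 3.81% of their UMIs. The richest HttQ175/+ nucleus, in replicate 3, held 30 marker UMIs and 9.60% of homeostatic UMIs in its genotype. Both had few UMIs (1295 in HttQ175/+ replicate 3 and 1248 in WT replicate 2) and the mitochondrial shares were 4.09% in the HttQ175/+ nucleus and 4.01% in the WT nucleus, beside a median of 0.0741% over all 82. Without these nuclei the homeostatic ratio was 0.680, and without WT replicate 2 as a whole it was 0.659.

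Of the 20 homeostatic genes 15 had enough UMIs for the test and none passed. Their median log2 difference was -0.80 and 14 lay below 0, while over all genes tested the median was 0.40 and 794 of 3022 lay below 0. Cst3, which encodes the secreted protease inhibitor cystatin C, had 61, 45, 50 and 53 UMIs in HttQ175/+ replicates 1 to 4, against 0, 72 and 25 in WT replicates 1 to 3, and differed by -1.01 ± 0.66 (log2, SE, limma adjusted p = 0.616). Cst3 stood at 1638 CPM in microglia and at 3924 CPM in astrocytes. P2ry12 had 4, 6, 8 and 11 UMIs in HttQ175/+ mice, against 1, 8 and 4 in WT mice, and differed by -0.55 ± 0.66 (limma adjusted p = 0.811).

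Tgfbr1, the TGF-beta receptor that microglia need for their mature state, had 7, 8, 8 and 15 UMIs in HttQ175/+ mice, against 0, 18 and 2 in WT mice. Csf1r had 6, 4, 10 and 11 UMIs in HttQ175/+ mice, against 1, 11 and 3 in WT mice. The fitted log2 differences of these genes were -0.55 ± 0.71 and -0.68 ± 0.70 (SE, limma adjusted p = 0.836 and 0.764). Cx3cr1 differed by -0.08 ± 0.64 (limma adjusted p = 0.981).

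The complement list also had a lower pooled level in HttQ175/+ microglia. Its 10 genes summed to 1430, 793, 2807 and 995 CPM in HttQ175/+ replicates 1 to 4, against 720, 2933 and 1960 CPM in WT replicates 1 to 3, and the genotypes overlapped. The pooled ratio was 0.473 (0.362 to 0.622), and 0.658 without the richest nuclei. Over mice, nuclei with at least 3 marker UMIs averaged 2790 ± 1857 CPM in HttQ175/+ mice and 2670 ± 1864 CPM in WT mice (SD, n = 4 and 3). WT replicate 1 entered this mean with 720 CPM, from 2 UMIs in its single nucleus, below the floor of 3 UMIs. WT replicates 2 and 3 held 4435 and 2855 CPM in such nuclei, while HttQ175/+ mice spanned 1219 to 5424 CPM. C1qa, C1qb and C1qc gave most of its UMIs, with 81, 65 and 64 UMIs.

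C1qa had 17, 16, 10 and 18 UMIs in HttQ175/+ mice, against 0, 14 and 6 in WT mice. C1qb had 13, 12, 9 and 6 UMIs in HttQ175/+ mice, against 1, 19 and 5 in WT mice. C1qc had 12, 9, 10 and 6 UMIs in HttQ175/+ mice, against 0, 24 and 3 in WT mice. In UMIs WT replicate 2 was the highest mouse for C1qb and C1qc, and WT replicate 1, with its single nucleus, was the lowest for all chains. The chains differed by -0.61 ± 0.62, -0.997 ± 0.65 and -1.03 ± 0.72 on the log2 scale (SE, limma adjusted p = 0.764, 0.623 and 0.649), and none of the 4 complement genes tested passed. C4b had 5 UMIs in microglia (26.8 CPM) and stood at 380 CPM in astrocytes.

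Summed levels of the reactive list overlapped between the genotypes. Of its 25 measured genes 9 were at their highest in microglia, and it summed to 2676 CPM in microglia and 8254 CPM in astrocytes. Of its 26 genes Clec7a was not in the table, Cst7, Itgax, Spp1, Gpnmb, Igf1 and Cybb had no microglial UMI, and 10 had enough UMIs for the test, of which none passed. The sums were 4908, 1156, 5019 and 1674 CPM in HttQ175/+ replicates 1 to 4, against 1441, 3847 and 2068 CPM in WT replicates 1 to 3. HttQ175/+ replicates 1 and 3 were the highest mice and HttQ175/+ replicate 2 was the lowest. The mean over mice was 3189 ± 2060 CPM in HttQ175/+ mice and 2452 ± 1248 CPM in WT mice (SD, n = 4 and 3), while the pooled ratio was 0.820 (0.658 to 1.03). The pooled ratio was 1.46 without the richest nucleus of each genotype and 1.34 without WT replicate 2. It was 1.11 without HttQ175/+ replicate 2 and 0.555 without HttQ175/+ replicate 1, so single nuclei and mice decide its direction. Over nuclei with at least 3 marker UMIs it was 0.880 (0.692 to 1.13). Over mice such nuclei averaged 5142 ± 4374 CPM in HttQ175/+ mice and 2906 ± 2335 CPM in WT mice (SD, n = 4 and 3). The value of WT replicate 1 in this mean rests on 4 UMIs in its single nucleus.

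Apoe had 23, 23, 15 and 2 UMIs in HttQ175/+ replicates 1 to 4, against 0, 0 and 3 in WT replicates 1 to 3. HttQ175/+ replicate 4 lay within the WT range. Pooled levels were 409 CPM (314 to 523) in HttQ175/+ microglia and 91.6 CPM (18.9 to 268) in WT microglia, and the fitted log2 difference was 1.91 ± 0.79 (SE, limma adjusted p = 0.515). Of its 66 UMIs 40 lay in marker-free nuclei, and astrocytes, which are its main source in brain, held 6287 CPM. Apoe had 20 UMIs in the 35 HttQ175/+ nuclei with at least 3 marker UMIs and 0 in the 9 WT ones. Without Apoe the reactive list there fell from 25 to 19, 56 to 44 and 60 to 58 UMIs in HttQ175/+ replicates 2 to 4. In HttQ175/+ replicate 1 it stayed at 142 UMIs, so the Apoe UMIs were uneven among mice. The part of astrocyte RNA in the Apoe values was not tested.

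Ctsd had 44, 4, 10 and 14 UMIs in HttQ175/+ mice, against 2, 9 and 4 in WT mice, and differed by -0.25 ± 0.72 (log2, SE, limma adjusted p = 0.931). Fth1, the heavy chain of the iron store ferritin, had 40, 4, 16 and 16 UMIs in HttQ175/+ mice, against 0, 13 and 5 in WT mice. As levels, Ctsd was highest in HttQ175/+ replicate 1, the 15-month mouse, at 1085 CPM, and Fth1 in HttQ175/+ replicate 3, at 1361 CPM. Trem2, the receptor that senses lipids and drives the reactive programme, had 12, 2, 3 and 9 UMIs in HttQ175/+ mice, against 0, 11 and 0 in WT mice (limma adjusted p = 0.998).

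Phagocytic and Fc receptor genes were measured for 28 members, of which 27 had a UMI and 24 were at their highest in microglia among the types. They summed to 2022, 892, 4083 and 2451 CPM in HttQ175/+ replicates 1 to 4, against 3602, 3510 and 2939 CPM in WT replicates 1 to 3. HttQ175/+ replicate 3 lay above every WT mouse and the other HttQ175/+ mice lay below them. The pooled ratio was 0.551 (0.441 to 0.693), and 0.676 (0.538 to 0.854) over nuclei with at least 3 marker UMIs. Over mice such nuclei averaged 4249 ± 2694 CPM in HttQ175/+ mice and 4370 ± 866 CPM in WT mice (SD, n = 4 and 3). The value of WT replicate 1 in this mean rests on 10 UMIs in its single nucleus. None of 9 tested members passed. Their median log2 difference over all nuclei was -0.02, with 6 of 9 below 0. In nuclei with at least 3 marker UMIs it was 0.06, with 4 of 9 below 0. All genes tested had a median of 0.40 over all nuclei, with 794 of 3022 below 0. In nuclei with at least 3 marker UMIs their median was 0.33, with 360 of 1203 below 0. Sirpa, the receptor for the signal Cd47 that restrains engulfment, had 9, 4, 2 and 19 UMIs in HttQ175/+ mice, against 4, 9 and 4 in WT mice, and differed by -0.91 ± 0.64 (log2, SE, limma adjusted p = 0.651). Mertk, a receptor for engulfment of dying cells, differed by -1.11 ± 0.62, and Ptprc by 1.47 ± 0.61 (limma adjusted p = 0.568 and 0.523), so estimates within the list pointed both ways.

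**Figure D4:**
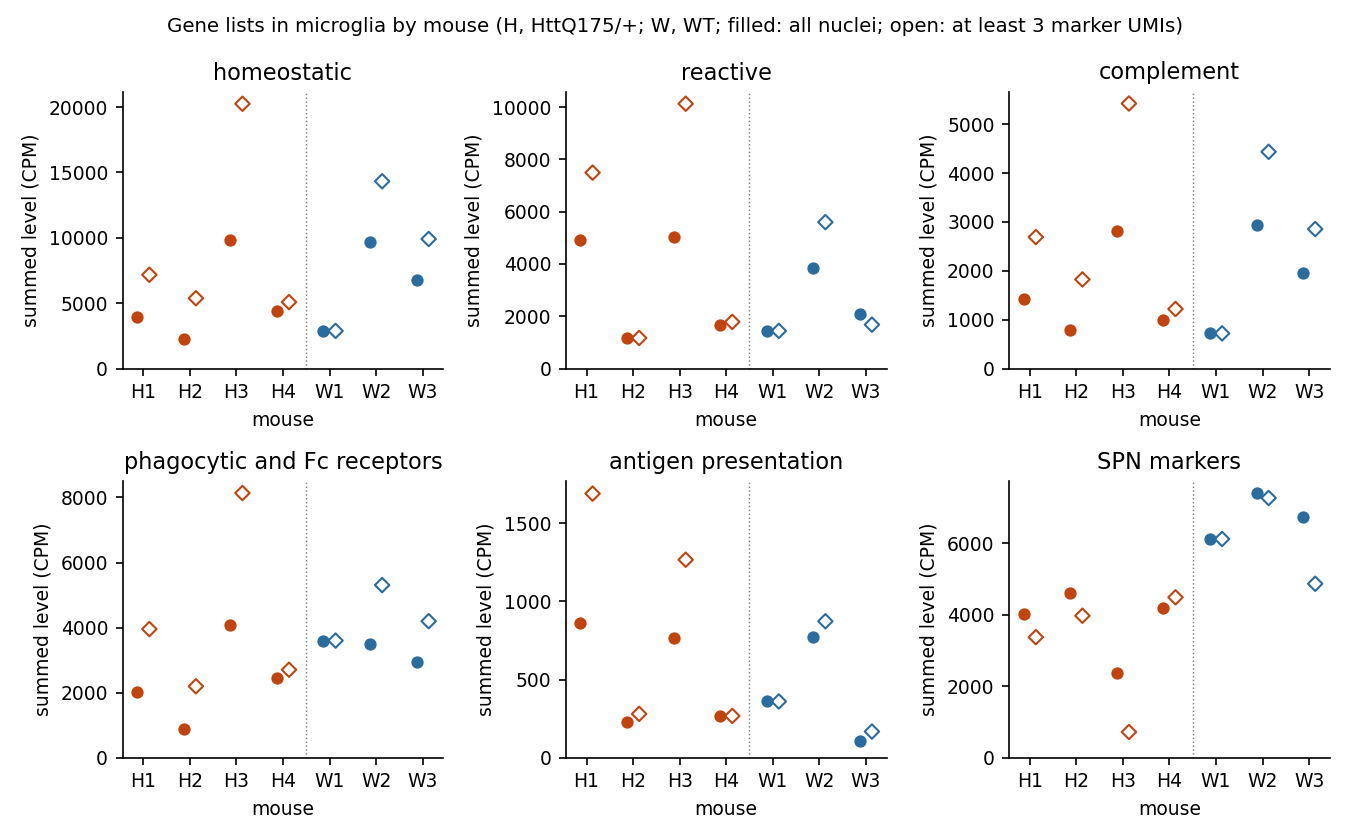
Summed levels (CPM, y axis) of 6 gene lists in microglia of each mouse (H1 to H4, HttQ175/+ replicates 1 to 4; W1 to W3, WT replicates 1 to 3), over all annotated nuclei (filled) and over nuclei with at least 3 marker UMIs (open). Genotypes overlap for all lists drawn except the SPN markers, where HttQ175/+ mice reach 4608 CPM at most and WT mice 6124 CPM at least over all nuclei. The 6124 CPM are those of W1, which has a single nucleus.

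Antigen presentation genes summed to 863, 231, 766 and 267 CPM in HttQ175/+ replicates 1 to 4, against 360, 769 and 109 CPM in WT replicates 1 to 3. The class I genes H2-D1, B2m and H2-K1 gave 28, 26 and 23 UMIs, and endothelial cells held each at a higher level. Class II genes were at the limit of detection, with 1 UMI each for H2-Aa and H2-Ab1 and none for H2-Eb1. Cd74, the chain that escorts class II, had 6 UMIs, all in HttQ175/+ replicate 1.

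Inflammatory and interferon genes were close to the limit of detection. Of 18 cytokine and NF-kB genes 8 had no UMI, namely Il1b, Il1a, Ccl2, Ccl4, Nlrp3, Ptgs2, Nos2 and Tlr4. Tnf had 2 UMIs and Ccl3 had 5. Of 14 interferon response genes 6 had no UMI, and the 14 summed to 203 CPM in microglia and 1545 CPM in endothelial cells. At this depth a difference between genotypes in these genes was not detectable.

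The lineage transcription factors summed to 2466, 2147, 3488 and 3276 CPM in HttQ175/+ replicates 1 to 4, against 4683, 3847 and 5225 CPM in WT replicates 1 to 3, without overlap. The summed levels of 3 of the 22 lists did not overlap, all lower in HttQ175/+ mice, the others being the SPN markers and the heat shock genes. In WT replicate 1, with its single nucleus, these sums rest on 13 UMIs (lineage factors), 17 UMIs (SPN markers) and 2 UMIs (heat shock genes). Over nuclei with at least 3 marker UMIs 1 list lay lower without overlap, the SPN markers, and 1 lay higher, the ligands and partners made by other cells (374 to 844 CPM in HttQ175/+ mice and 0 to 364 CPM in WT mice, the WT values resting on 6 UMIs). Of the 18 lineage factors 8 were at their highest in microglia. Their sum was 2928 CPM in microglia, 1542 CPM in the marker-free nuclei and 4767 CPM in Pnoc/Pvalb interneurons, so it is not particular to microglia. None of 9 tested factors passed. Their median log2 difference was -0.19 and 6 lay below 0, beside a median of 0.40 and 794 of 3022 below 0 over all genes tested. Foxp1, which SPNs also express, gave 179 of the 547 lineage factor UMIs and stood at 958 CPM in microglia and 1251 CPM in iSPNs, the SPNs of the indirect pathway. Irf8, a factor that myeloid cells need, had 5, 4, 5 and 15 UMIs in HttQ175/+ mice, against 1, 5 and 0 in WT mice (log2 difference 1.28 ± 0.69, SE, limma adjusted p = 0.567). Sall1, a factor of microglial identity, had 6, 2, 1 and 4 UMIs in HttQ175/+ mice, against 1, 5 and 1 in WT mice, and Spi1, which encodes PU.1, had 8 UMIs in all.

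The summed level of SPN markers in microglia was lower in every HttQ175/+ mouse than in any WT mouse, a sum in which Pde10a held 353 of 876 UMIs. The 6 SPN markers summed to 4020, 4608, 2382 and 4198 CPM in HttQ175/+ replicates 1 to 4, against 6124, 7405 and 6749 CPM in WT replicates 1 to 3. The value of WT replicate 1 rests on 17 UMIs in its single nucleus. The means were 3802 ± 978 CPM in HttQ175/+ mice (SD, n = 4) and 6759 ± 641 CPM in WT mice (SD, n = 3), and the pooled ratio was 0.587 (0.504 to 0.685). None of the 6 genes passed the test, their median log2 difference was -0.12 and 3 of the 6 lay below 0. Over nuclei with at least 3 marker UMIs the median was -0.50, with 4 of 5 tested genes below 0. Of all genes tested, 794 of 3022 lay below 0 over all nuclei, and 360 of 1203 over nuclei with at least 3 marker UMIs. These genes mark SPNs, the most numerous neurons of the striatum, and dSPNs alone were 1809 of the 4524 nuclei.

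Pde10a, chosen after its values were seen, is shown in all types that are not neurons. It stood at 1551 CPM in HttQ175/+ microglia and 3480 CPM in WT microglia, a ratio of 0.446 (0.355 to 0.562). The ratios of HttQ175/+ over WT were 0.646 in astrocytes, 0.646 in oligodendrocytes, 0.652 in oligodendrocyte progenitors and 0.705 in endothelial cells. The intervals of these Pde10a ratios lay below 1, nearest to it in endothelial cells (0.504 to 0.997). They cover counting error of pooled UMIs and leave out the spread among mice, so they do not test genotype. The SPN markers as a sum gave 0.804 in astrocytes, 0.674 in oligodendrocytes, 0.780 in oligodendrocyte progenitors and 0.967 (0.771 to 1.22) in endothelial cells. The 5 general neuron markers, among them Snap25, gave 1.08 (0.796 to 1.51) in microglia, 1.81 in astrocytes, 1.16 in oligodendrocytes, 1.20 (0.857 to 1.71) in oligodendrocyte progenitors and 1.56 in endothelial cells. Whether the ratios in microglia differ from those of other types was not tested. In microglia the gene itself did not pass across mice (log2 difference -1.26 ± 0.80, SE, limma adjusted p = 0.603).

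**Figure D5:**
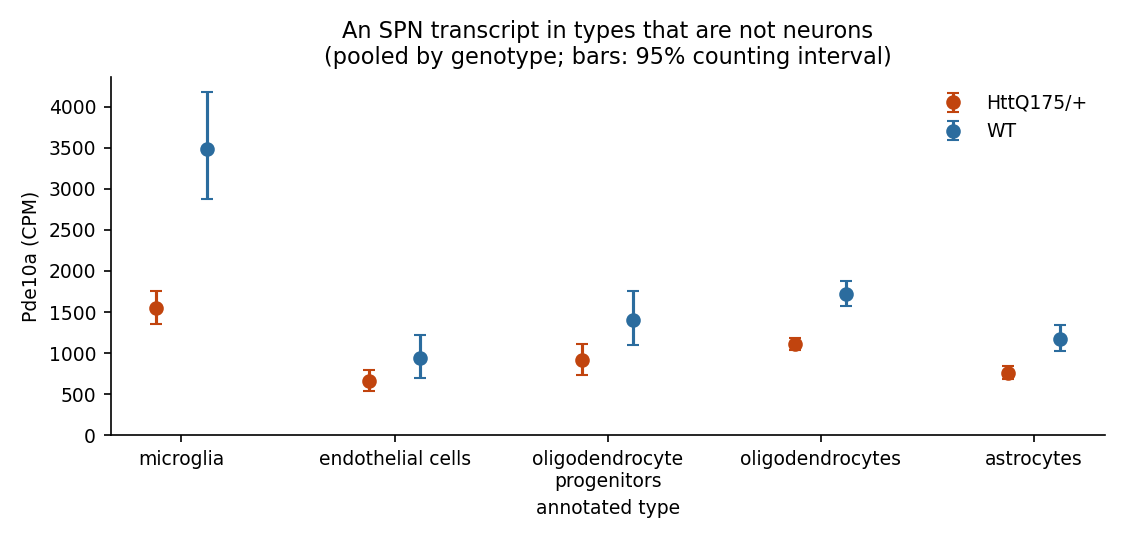
Pde10a level (CPM, y axis) in microglia and the other types that are not neurons (x axis), pooled over HttQ175/+ mice and over WT mice, with bars for the 95% counting interval. HttQ175/+ lies below WT in each type, with 1551 CPM in HttQ175/+ microglia and 3480 CPM in WT microglia.

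Genes through which other cells address microglia were tested in those cells. None of 14 pairs of gene and type passed, while 3.93% of all genes were called in dSPNs, 2.29% in iSPNs, 0.658% in oligodendrocytes and 0% in astrocytes and in Sst interneurons. Cd200, a neuronal ligand that quiets microglia, averaged 47.8 CPM in dSPNs of HttQ175/+ mice and 25.7 CPM in those of WT mice (log2 difference 0.76 ± 0.27, SE, limma adjusted p = 0.144). In iSPNs it averaged 59.1 CPM in HttQ175/+ mice and 24.6 CPM in WT mice (0.89 ± 0.35, limma adjusted p = 0.228). Il34, the ligand of Csf1r made by neurons, averaged 44.8 CPM in dSPNs of HttQ175/+ mice and 49.1 CPM in those of WT mice (-0.26 ± 0.22, limma adjusted p = 0.607). Cx3cl1, which encodes fractalkine, differed by -0.31 ± 0.18 in dSPNs (limma adjusted p = 0.419). The microglial receptor for Cd200, Cd200r1, had no UMI in microglia.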

How the data were processed

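Single-nucleus RNA was measured in 7 striata. The submitters' processing notes name Cell Ranger 3.0.2, Seurat and the mm10 build. Not given in the sources used here are the filters on nuclei, how types were called and whether counting used strand. Values are deposited as a natural log, namely of 1 plus the UMIs of a gene scaled to 10000 in its nucleus, for 27998 genes. The step between low values gave whole UMIs back, with 100% of nonzero entries whole to a tolerance of 0.02. Types come from the authors' deposited annotation. A smoothed table was not used. Overlapping and antisense genes cannot be told apart where strand was not used.

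Microglia held 1175 to 4912 UMIs per nucleus (median 2070), and all nuclei 1128 to 5632. For each mouse, linear values were averaged over its microglia as CPM, scaled with TMM (trimmed mean of M) factors and put on a log2 scale after adding 65.2 CPM (worth 2 UMIs of the median mouse), which shrinks differences of low genes. Genes entered with 15 UMIs in all and a UMI in 3 mice. limma 3.58.1 in R 4.3.3 (limma-trend, Benjamini-Hochberg over all genes tested, adjusted p under 0.05) compared HttQ175/+ with WT in mice with at least 5 microglial nuclei. A count test was not used because the deposited unit is a log. Ligands were fitted the same way, but with a stricter filter, in types with at least 10 nuclei in 3 mice per genotype. Genes of those types entered with 15 UMIs in all and, in at least 3 mice, a level worth 10 UMIs of the median mouse. The fits were tested on simulated data. Mean CPM are given before scaling. Shares and depth were compared with exact two-sided permutation tests in scipy 1.17.1. Counting intervals are exact Poisson or exact conditional ones (ratios) and Wilson ones (shares), at 95%, and floors are 3 UMIs. Sums over a list have no test.

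Leading genes were ranked by log2 of CPM plus 20 over the next type plus 20, among genes with at least 20 microglial UMIs. Named genes were the markers, up to 6 members of each of 22 lists in the order of their UMIs, the 20 leading genes and, where fewer than 3 pass, the 5 of each direction with the smallest p. Genes at 0, Sall1, Spi1, Mertk, Ptprc, Cx3cl1, Cd74 and other list members outside that order were named after their values were seen. Some genes that meet these rules are not reported here. The members and lists were chosen with earlier results of these data known. Scrublet in scanpy 1.11.5 called doublets. Coordinates are from GENCODE vM21. Alternatives covered the pseudocount, the filter, scaling, weighting, denominators, marker UMIs and each mouse left out.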

Additional observations from a re-analysis of the deposited data

Results flagged for a closer look

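Of 25 sets of 4 HttQ175/+ values checked for a mouse far from the others, 2 had one, and chance gives about 1 in 20. The share of nuclei annotated as microglia with at least 3 marker UMIs was 2.14% in HttQ175/+ replicate 4, and the nearest HttQ175/+ mouse was at 0.893%. The summed level of the border macrophage markers was 170 CPM in HttQ175/+ replicate 3 and 0 in the other HttQ175/+ mice, which rests on 2 UMIs of F13a1.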

How the results depend on the processing

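No paired analysis was possible because the labels carry no replicate numbers. Depth bounds all of this: WT microglia were 13 nuclei, 1 of them in WT replicate 1, and no exact test over mice could reach a p under 0.05. The difference in share kept its sign under every alternative, from 0.401 percentage points with at least 3 marker UMIs to 3.98 over nuclei that are not neurons, and from 0.591 to 1.51 with a mouse left out; per 100 oligodendrocytes it was 7.73 microglia. The difference in median UMIs turned to 0.0941 as a ratio to the mouse's other nuclei, and with a mouse left out it ran from -1012.5 to 386.5 UMIs, the positive value being without WT replicate 2. The count of genes called ran from 0 to 8 with a mouse left out. The 8, all higher in HttQ175/+ mice, came without WT replicate 2, where the lone WT mouse is assumed to vary like the others, and included Wnk1 (adjusted p = 0.0415 with limma, against 0.132 to 0.799 under the other alternatives). WT replicate 1 is not in that comparison, so leaving it out changes nothing. Without the stricter filter on low genes, which kept Tgfb2 in dSPNs (26 UMIs) out of the main fit, this 1 ligand pair was called (adjusted p = 0.0246 with limma). The log2 difference of Gas6 in Sst interneurons ran from -0.198 to 0.0751 with a mouse left out, the positive value being without HttQ175/+ replicate 2. Of 307 recomputed values of single genes 305 kept direction and side of the threshold. The pooled ratios of HttQ175/+ over WT moved as follows, and the cause was not tested. The homeostatic ratio was 0.571 with at least 1 marker UMI, 0.572 with at least 3, 0.680 without the richest nuclei and 0.405 to 0.659 with a mouse left out. The reactive ratio was 1.46 without the richest nuclei and 0.555 to 1.34 with a mouse left out, being above 1 without WT replicate 2 and without HttQ175/+ replicate 2. The complement ratio was 0.658 without the richest nuclei and 0.418 to 0.699 with a mouse left out. The phagocytic ratio was 0.706 with at least 1 marker UMI and 0.486 to 0.736 with a mouse left out, and the antigen presentation ratio 0.545 to 2.68, the highest without WT replicate 2. All settings for the pooled ratios, and those with a minimum of marker UMIs (other than the test per gene without marker-free nuclei) or without marked doublets, were chosen after seeing the data.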

Other observations

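Cell cycle genes were nearly absent from microglia, with 3 of 8 genes detected and 5 UMIs in all, of which none lay in WT mice. Heat shock and dissociation genes summed to 197, 677, 340 and 510 CPM in HttQ175/+ replicates 1 to 4, against 720, 1106 and 762 CPM in WT replicates 1 to 3, without overlap. The 720 CPM of WT replicate 1 rest on 2 UMIs in its single nucleus, below the floor of 3 UMIs, and replicate 3 had 7 UMIs. WT replicates 2 and 3 also lay above the highest HttQ175/+ mouse at 677 CPM, so the lack of overlap remains without WT replicate 1. The margin of WT replicate 3 rests on its 7 UMIs. Over nuclei with at least 3 marker UMIs the genotypes overlapped for these genes, and WT replicate 3 had no UMI of them. Immediate early genes, led by Junb with 29 UMIs and Egr1 with 22, summed to 604 CPM in HttQ175/+ microglia and 641 CPM in WT microglia.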
